A study of Danio rerio with 8 samples.

Results

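The miR-30 family was represented by 5 genes in small RNA libraries of zebrafish larvae, one for each of the lettered miRNAs a to e. They are dre-mir-30a (ENSDARG00000090098), dre-mir-30b (ENSDARG00000083528), dre-mir-30c (ENSDARG00000080952), dre-mir-30d (ENSDARG00000081529) and dre-mir-30e-2 (ENSDARG00000083500). They were taken by their symbol, out of 434 miRNA genes and 32520 genes in the table, and the rule itself uses no measured value. Each letter had a single row here, so the sum of each lettered miRNA was the count of its gene. The name dre-mir-30e-2 implies another copy, which had no row under a dre-mir-30 name. Rows without a symbol or under other names could hold further copies, so the family sums and shares cover these 5 genes. The libraries came from wildtype larvae at 7 days post-fertilization (dpf), each a pool of 50 individuals from 1 crossing of an AB male, 12 months old, with an undisturbed female. In 4 libraries the father was an undisturbed control (S-), and in the other 4 the father had been through a chronic stress protocol of 21 days before mating (S+). All larvae were themselves unexposed, and the comparison asks whether paternal stress is accompanied by other small RNA levels in the offspring.

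MicroRNAs of the miR-30 family carry the same seed, the short stretch near the 5′ end that pairs with target mRNAs, and the members are therefore predicted to share many targets. In zebrafish, miR-30 has been tied to muscle fiber specification through smoothened and to the sprouting of blood vessels through the Notch ligand Dll4. In the frog and the mouse the family is known for its role in the kidney, and in mammals it represses several genes of the epithelial to mesenchymal transition. Family members are expressed in many tissues, so a pool of whole larvae mixes their sources, and fewer cells of a type cannot be told apart from less RNA per cell. All 5 members matched a RefSeq gene (assembly GRCz12tu, used for names, lengths and neighbors only). There dre-mir-30c and dre-mir-30e-2 are each other's nearest miRNA gene on chromosome 13, with 0 protein-coding genes between them. A long noncoding RNA gene overlaps dre-mir-30c. The genes dre-mir-30b and dre-mir-30d are nearest neighbors on chromosome 16, where both overlap zfat, a zinc finger gene, and a long noncoding RNA gene. Overlap was judged by position only, without regard to strand. The gene dre-mir-30a is the 1 member on chromosome 19, where it overlaps a protein-coding gene known by a locus number only.

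The library totals ran from 3492945 to 4943297 counts, and miRNA genes held 96.2% to 97.9% of them. MiRNAs typical of larval tissues were abundant throughout, with 36930 to 44358 CPM (counts per 1000000 counts of a library, scaled with TMM factors) for the muscle list and 81516 to 115006 CPM for the brain list. The liver miRNA dre-mir-122 was present in each library, at 1564 to 2110 CPM. The early embryo list, which holds the miR-430 genes that clear maternal mRNAs, was sparse, with 26 of its 55 rows at 0 in all libraries. Only 8 rows passed the filter on low counts. Of these, 0 were lower in S+, while 46.5% of all genes tested were higher. The rows are similar copies among which reads can be divided, so their directions are not independent. The list summed to 240 to 306 CPM in S- and 314 to 356 CPM in S+, so that the groups did not overlap, as was so for 7.68% of the single genes tested. The other lists overlapped between the groups, and the part of the early embryo list in the values below was not tested. None of the 9 tissue lists had a called member (thresholds below), beside 0.307% of all 651 genes tested, so this does not set the lists apart.

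Members of the miR-30 family were among the well measured miRNAs of the larvae. Together they held 4.98%, 6.81%, 7.21% and 4.88% of the miRNA counts in the S- libraries 1 to 4, and 6.06%, 5.33%, 6.97% and 5.90% in the S+ libraries 1 to 4. The mean share was 5.97% ± 1.21 in S- and 6.06% ± 0.680 in S+ (each SD, n = 4), and the range of S+ lay within that of S-. The 95% Wilson interval of such a share was at most 0.0271 percentage points wide on either side, which covers counting error only. On the CPM scale the family summed to 57368 ± 6944 in S- and 59336 ± 1735 in S+ (SD, n = 4).

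Among the members, dre-mir-30c was by far the most abundant, with a mean of 34520 CPM over the 8 libraries, the rank of 6 among the 271 miRNA genes tested. The gene dre-mir-30e-2 followed with a mean of 9136 CPM (rank 34), then dre-mir-30b with 7901 CPM (rank 38) and dre-mir-30d with 6336 CPM (rank 40). The gene dre-mir-30a was the least abundant, at 460 CPM on average (rank 130), on 1423 to 2591 counts per library. These ranks are of single gene rows. A miRNA with several copies has its reads spread over several rows, so they are not ranks of whole miRNAs. Divided by the RefSeq gene length the mean levels kept this order, from 43696 CPM per 100 bases for dre-mir-30c to 516.5 for dre-mir-30a. Within single libraries dre-mir-30c exceeded dre-mir-30e-2, dre-mir-30b exceeded dre-mir-30d, and dre-mir-30d exceeded dre-mir-30a in 8 of 8. The counts of dre-mir-30e-2 exceeded those of dre-mir-30b in 6 of 8, with the reverse in S-3 and S+3. Their count ratio ran from 0.889 to 1.67, and a difference between these neighbors in the order was not tested.

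**Figure D1:**
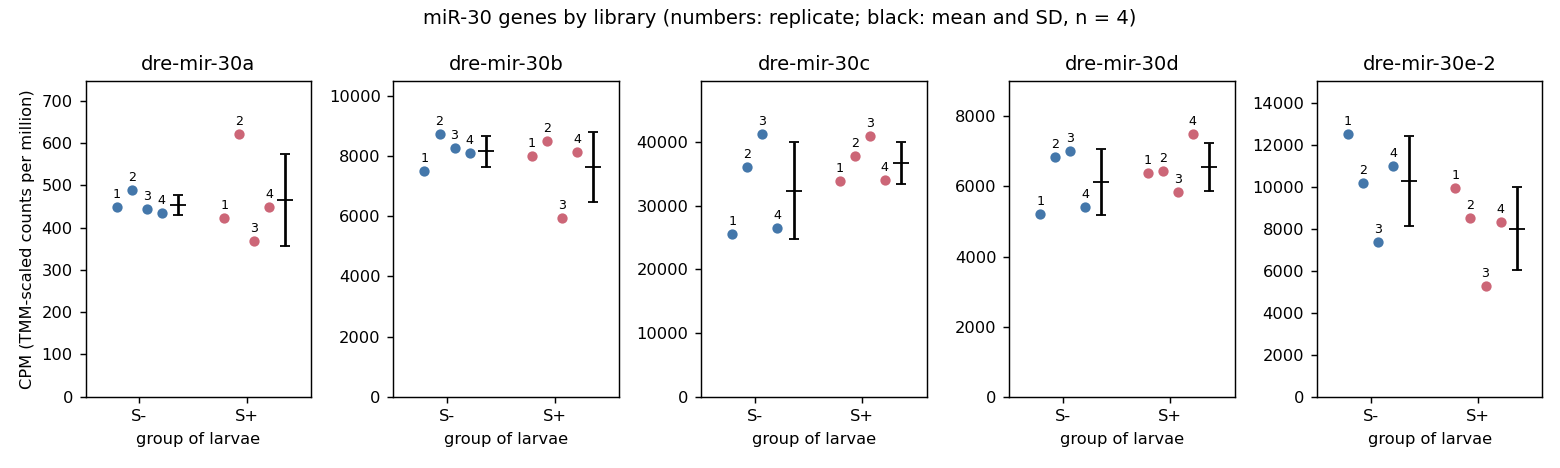
TMM-scaled CPM (linear axes from 0) of each miR-30 gene in the 4 S- libraries (blue) and the 4 S+ libraries (red), with replicate numbers above the points and the mean and SD of each group in black. The ranges of the groups overlap for all 5 genes, and S+3 has the lowest value of all 8 libraries for dre-mir-30a, dre-mir-30b and dre-mir-30e-2.

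None of the 5 members passed the thresholds of a call between S+ and S- larvae, an adjusted p below 0.05 with an absolute log2 fold change above 0.58. In the same limma fit 2 of 651 genes were called, which is 0.307% of the genes tested. The fit was repeated with the numbered copies of each dre-mir name summed, while other names, such as dre-let-7, were left as single rows. There 1 of 600 features was called (0.167%), again with 0 of the 5 lettered miR-30 sums called. At an unadjusted limma p below 0.05 there were 81 of the 651 genes (12.4%) and 0 members. The groups did not overlap for 7.68% of the 651 genes and for 0 of the 5 members. With only 5 members, 0 beside either share does not set the family apart. The log2 fold changes of the members had a median of 0.0061, with 3 above and 2 below 0, beside a median of -0.02 over all genes tested.

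The gene dre-mir-30e-2, next to dre-mir-30c on chromosome 13, had the member difference farthest from 0. In the S- libraries 1 to 4 it was at 12519, 10164, 7387 and 10995 CPM, and in the S+ libraries 1 to 4 at 9921, 8524, 5280 and 8295 CPM. All S+ libraries lay below S-1, S-2 and S-4, while S-3 lay below 3 of the 4 S+ libraries. The means were 10266 ± 2153 CPM in S- and 8005 ± 1954 CPM in S+ (SD, n = 4). On the log2 scale the difference was -0.37 ± 0.22 (standard error), with an adjusted p of 0.534 in limma, which is 0.773 times the S- level with a 95% interval from 0.551 to 1.09 times. The exact permutation test, two-sided over log2 CPM, gave p = 0.229. The difference was -0.19 without S+3 and -0.52 without S-3, with the limma adjusted p at 0.701 and 0.380. The fit without a filter on low counts gave a limma adjusted p of 0.0103 with a log2 fold change of -0.44, which stayed under the fold change minimum. The standard error of dre-mir-30e-2 in that fit was 0.11.

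The gene dre-mir-30c, the leading member, had a higher mean in S+ and did not pass the test either. Its levels were 25606, 36018, 41294 and 26554 CPM in the S- libraries 1 to 4, and 33918, 37843, 40853 and 34075 CPM in the S+ libraries 1 to 4. The S+ libraries were closely spaced and all lay above S-1 and S-4, but S-3 was the highest of all 8. The means were 32368 ± 7583 CPM in S- and 36672 ± 3326 CPM in S+ (SD, n = 4), a difference of 0.20 ± 0.17 (standard error) in log2 units with an adjusted p of 0.638 in limma. This is 1.15 times the S- level with a 95% interval from 0.889 to 1.49 times, and the two-sided exact permutation test gave p = 0.343. The difference was 0.099 without S-1, 0.11 without S-4 and 0.33 without S-3, with 0.13 in the fit without a filter.

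The neighbors dre-mir-30b and dre-mir-30d on chromosome 16 showed smaller differences. The levels of dre-mir-30b were 7509, 8747, 8267 and 8105 CPM in the S- libraries 1 to 4, and 8014, 8494, 5938 and 8133 CPM in the S+ libraries 1 to 4. One library, S+3, was low, while the other S+ libraries lay within the S- range. The S+ level of dre-mir-30b differed by -0.11 ± 0.14 (standard error) in log2 units, with an adjusted p of 0.751 in limma and p = 0.571 in the two-sided exact permutation test. Without S+3 the difference of dre-mir-30b was 0.0020, and -0.011 in the fit with copies of each dre-mir name summed. It was thus near 0 without that library. The levels of dre-mir-30d were 5221, 6849, 7010 and 5410 CPM in the S- libraries 1 to 4, and 6390, 6446, 5852 and 7505 CPM in the S+ libraries 1 to 4. Here the groups differed by 0.10 ± 0.14 (standard error) in log2 units, with an adjusted p of 0.765 in limma and p = 0.457 in the two-sided exact permutation test. The difference of dre-mir-30d was 0.027 without S-1, 0.041 without S-4, 0.042 without S+4 and 0.17 without S-3, and 0.015 in the fit without a filter. Its 95% interval ran from 0.863 to 1.34 times the S- level, and that of dre-mir-30b from 0.752 to 1.15 times.

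The gene dre-mir-30a, on chromosome 19, was closely grouped in S- and widely spread in S+. It stood at 448, 488, 444 and 435 CPM in the S- libraries 1 to 4, and at 422, 622, 369 and 448 CPM in the S+ libraries 1 to 4. Both the highest and the lowest of the 8 values were in S+, in S+2 and S+3. The coefficient of variation was 5.14% in S- and 23.5% in S+, and whether this spread differs between the groups was not tested. The group means differed by 0.0061 ± 0.17 (standard error) in log2 units, with an adjusted p of 0.989 in limma and p = 0.943 in the two-sided exact permutation test. Its 95% interval ran from 0.776 to 1.3 times the S- level. Its sign changed with the normalization and with single libraries, and no direction is given for this gene.

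**Figure D2:**
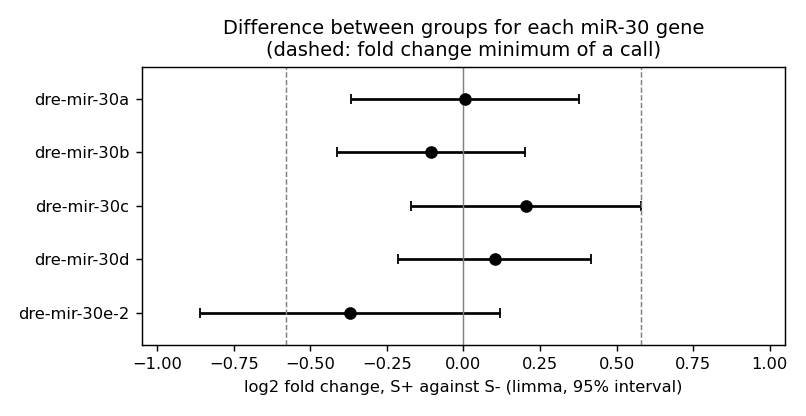
Log2 fold change of S+ against S- for each miR-30 gene (points, from the limma fit) with its 95% interval (bars); dashed lines mark the fold change minimum of a call, 0.58 in either direction. All 5 intervals include 0, and that of dre-mir-30e-2 is the 1 interval that passes beyond a dashed line, down to -0.86.

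The make-up of the family varied between libraries more than its sum did on the CPM scale. As a share of miRNA counts the family varied 1.48-fold. Within the family, the shares of dre-mir-30c (1.40-fold) and dre-mir-30d (1.28-fold) varied less than that. Those of dre-mir-30b (1.54-fold), dre-mir-30a (1.59-fold) and dre-mir-30e-2 (2.69-fold) varied more. The highest family sum in CPM was 1.26 times the lowest. The count ratio of dre-mir-30c to dre-mir-30e-2, which no scaling can change, varied 3.78-fold. This ratio was 2.05, 3.54, 5.59 and 2.42 in the S- libraries 1 to 4, and 3.42, 4.44, 7.74 and 4.11 in the S+ libraries 1 to 4. It was highest in S-3 and S+3, and 1 S+ library lay above the S- range, with the other 3 inside it. The share of dre-mir-30c in the family ran from 49.9% in S-1 to 70.1% in S+3, and that of dre-mir-30e-2 from 24.4% to 9.06% in the same libraries. The 95% Wilson interval of these shares was at most 0.239 percentage points wide on either side. In S+3 the TMM factor was the highest of the series, at 1.17, and 4 of the 9 tissue lists were at their lowest of the 8 libraries, those of muscle (36930 CPM), brain (81516 CPM), gut and kidney (7350 CPM) and red blood cells (2639 CPM). The part of these in the values of S+3 was not tested.

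**Figure D3:**
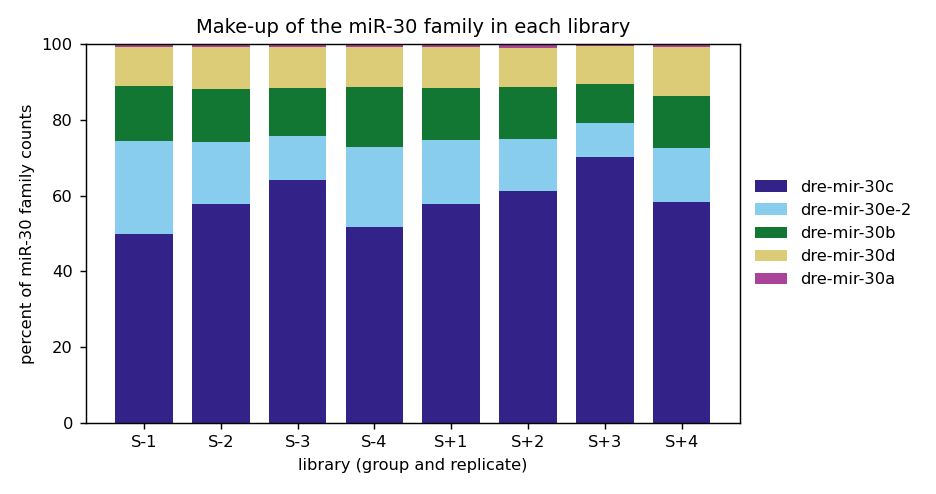
Share of each miR-30 gene in the counts of the family (stacked bars, percent) for the 4 S- and 4 S+ libraries. The share of dre-mir-30c is lowest in S-1 at 49.9% and highest in S+3 at 70.1%, and that of dre-mir-30e-2 is highest in S-1 at 24.4% and lowest in S+3 at 9.06%.

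The neighbors on chromosome 16 kept a steadier ratio than those on chromosome 13. The count ratio of dre-mir-30b to dre-mir-30d was 1.44, 1.28, 1.18 and 1.50 in the S- libraries 1 to 4, and 1.25, 1.32, 1.01 and 1.08 in the S+ libraries 1 to 4. It varied 1.48-fold, and 2 of the S+ libraries lay below the S- range. As a measure of likeness, each gene was centered on its own mean log2 CPM and the root mean square (RMS) difference of each pair was taken over the 8 libraries, which again does not depend on scaling. For dre-mir-30b and dre-mir-30d it was 0.18 log2 units, and 7.14% of the 266 other miRNA genes tested were nearer to dre-mir-30d than dre-mir-30b was. For dre-mir-30c and dre-mir-30e-2 it was 0.58, the largest among the 10 pairs of members, and 82.7% of the other miRNA genes were nearer to dre-mir-30c than its neighbor was. Without the 2 libraries numbered 3, chosen after the ratios were seen, this RMS difference was 0.40. The smallest among the members, 0.15, was between dre-mir-30a and dre-mir-30b, which are on different chromosomes. Without the libraries numbered 3 that pair was at 0.16, and the smallest was 0.12, between dre-mir-30c and dre-mir-30d.

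**Figure D4:**
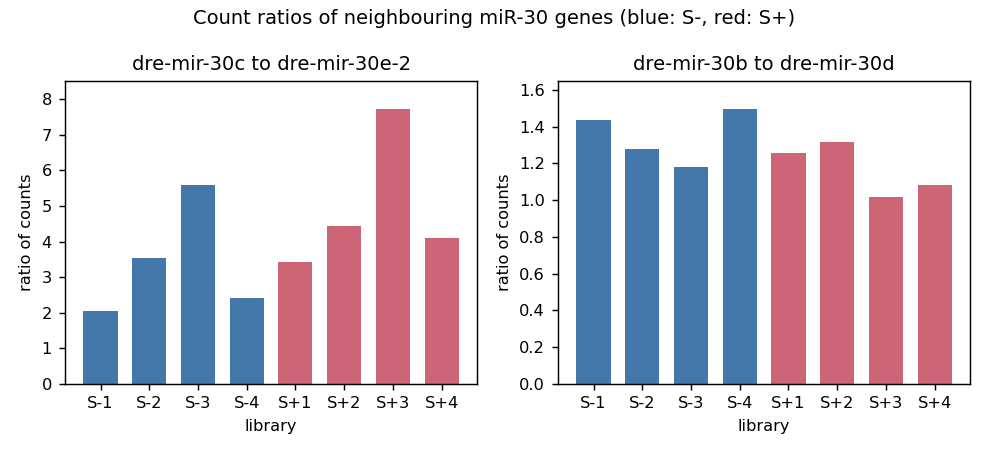
Ratio of counts of the neighboring genes dre-mir-30c and dre-mir-30e-2 (left) and dre-mir-30b and dre-mir-30d (right) in each library, S- in blue and S+ in red, with axes from 0. The left ratio runs from 2.05 to 7.74 with its highest value of each group in replicate 3, and the right one from 1.01 to 1.50.

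Spread over all 8 libraries was moderate for most members. The highest CPM was 1.44 times the lowest for dre-mir-30d, 1.47 times for dre-mir-30b, 1.61 times for dre-mir-30c and 1.68 times for dre-mir-30a, at or below the median of 1.68 times over the miRNA genes tested. For dre-mir-30e-2 it was 2.37 times, wider than in 76.8% of those genes. The members are similar in sequence, so reads could have been divided among them or among further copies, and the counts of single members are uncertain to that degree.

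The miRNA genes whose profile was nearest to the family sum, which is mostly dre-mir-30c, were dre-mir-125a-1, dre-let-7c-2, dre-let-7d-1, dre-mir-122 and dre-mir-125b-3. Their RMS differences were 0.07 to 0.11 log2 units, against a median of 0.28 over 266 miRNA genes and the 8 libraries. Of these, dre-mir-122 is the miRNA of hepatocytes, and the let-7 genes belong to a family that accumulates as animals mature. The family sum varied only 1.26-fold, so genes that vary little lie near it, and a link to these roles was not tested. The 5 genes nearest to dre-mir-30c alone were others. They were dre-mir-2191, dre-mir-23a-3, dre-mir-10b-2, dre-mir-23a-2 and dre-mir-10b-1, at 0.08 to 0.13. The genes nearest to dre-mir-30e-2 alone, looked up after its values had been seen, were dre-mir-135b, dre-mir-190b, dre-mir-723, dre-mir-153b and dre-mir-216a, at 0.05 to 0.11. Their log2 fold changes lay between -0.45 and -0.31, and their limma adjusted p values between 0.484 and 0.581. These genes were picked for their likeness over the same 8 libraries, so their fold changes had to lie near that of dre-mir-30e-2.

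Genes that act with or under the miR-30 family were hardly measurable in these libraries, in which miRNA genes held nearly all counts. Of 18 listed genes for the making and function of miRNAs, 15 were in the table and 1 passed the filter on low counts. This was dgcr8, the partner of Drosha in cutting primary miRNAs, with 6, 8, 13 and 4 counts in the S- libraries 1 to 4 and 7, 17, 12 and 9 counts in the S+ libraries 1 to 4. The ranges overlapped, and the difference was 0.40 ± 0.47 (standard error) in log2 units, with an adjusted p of 0.743 in limma. All 13 listed genes reported as miR-30 targets in fish, frog or mammals were in the table, smo and dll4 among them, but none had over 4 counts in a library. The gene nfyc, the mammalian host of miR-30c and miR-30e, had at most 5 counts, and zfat had at most 1. A lincRNA that the gene name table calls linc-mir30e-2 (ENSDARG00000102040) had 0 to 6 counts. A change of these RNAs was not detectable on so few counts in small RNA libraries.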

How the data were processed

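Small RNA libraries of 4 S- and 4 S+ larval pools were analysed, grouped and numbered as the labels give them. According to the labels and the methods of the study, reads of at least 16 bases were kept by Trim Galore 0.6.6, mapped to GRCz11 by STAR 2.7.8a and counted per Ensembl gene (release 104) by RSEM 1.3.0. The authors deposited these estimated counts as whole numbers and without normalization. RSEM divides reads that fit several genes, both arms of a hairpin fall in 1 count, and no deduplication is stated. The library paragraph of the study describes an mRNA preparation, and the small RNA kit is not given in the sources used here.

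The counts were fitted with limma 3.58.1 after voom in R 4.3.3, with TMM factors and filterByExpr (minimum count 10) from edgeR 4.0.16, and p-values were adjusted by Benjamini-Hochberg over all 651 genes tested. CPM values use the TMM factors, and log2 CPM a prior count of 2. Single genes were also compared by two-sided exact permutation tests (scipy 1.17.1), whose smallest p is 0.0286. Each crossing was a separate replicate. The fit was tested on simulated data. As alternatives DESeq2 1.42.0, the quasi-likelihood test of edgeR, other normalizations and filters, summed copies, the replicate block and leaving out each library were tried.

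The members, gene lists and tests were chosen with earlier results of these data known. The text names the members, listed genes that passed the filter and the 5 miRNA genes nearest to the family sum; other names were added after their values were seen. No mature sequence is given.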

Additional observations from a re-analysis of the deposited data

Results flagged for a closer look

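The family sum in library S+2 was 61928 CPM, above a narrow band of 58292 to 58665 CPM in S+1, S+3 and S+4. This gap made up 0.897 of the whole S+ range, past Dixon's 95% limit for 4 samples. Of the 12 groups of 4 examined, for the 5 members and their sum, this was the 1 group so far apart. Chance puts about 5% of single groups past this limit, so 1 among 12 is not unusual. As a share of miRNA counts the family was lowest of the S+ libraries in S+2, at 5.33%. In this library the TMM factor was the lowest of the series, at 0.845, and 1 miRNA gene without a symbol (ENSDARG00000083126) held 11.8% of all counts, against 4.74% to 9.72% in the others. The part of these in the value was not tested.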

How the results depend on the processing

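No member was called under any alternative run. Of 165 log2 fold changes of members and lettered sums under the alternatives, 150 kept their sign and 15 changed it, all of them of dre-mir-30a or dre-mir-30b. Each lettered sum holds the same counts as its member, and the alternatives reuse the same libraries, so these values are not independent. The value of dre-mir-30a was -0.00048 with library size only, -0.0025 with DESeq2 size factors and -0.070 without a filter, and -0.15 to 0.10 with single libraries left out. With copies of each dre-mir name summed it was -0.00029 with library size only and -0.065 without a filter, and -0.15 to 0.091 with single libraries left out. The value of dre-mir-30b ran from -0.17 to 0.0020 with single libraries left out, and was 0.036 without both libraries numbered 3, an alternative chosen after seeing the data. With copies of each dre-mir name summed, dre-mir-30b ran from -0.17 to -0.011 with single libraries left out. The family share of miRNA counts differed by 0.095 percentage points between the groups, and by -0.27 to 0.51 with single libraries left out.

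The number of genes called, 2 in all, was 30 with DESeq2 on the rounded counts, 1 with library size only, 79 without a filter, 7 with miRNA genes only, 1 with copies summed and 5 without both libraries numbered 3. With DESeq2 size factors limma called 0, with 79 genes at an unadjusted p below 0.05, and edgeR's quasi-likelihood test called 2. With single libraries left out the number ran from 0 to 3, and the fits with 0 had 71 to 78 genes at an unadjusted p below 0.05. For none of these counts was the cause tested. A fit with the replicate block called 9 genes, no member among them. The standard error of dre-mir-30e-2 fell from 0.22 to 0.11 and its limma adjusted p was 0.155. The labels and the methods do not say whether same-numbered libraries share anything beyond the number, such as a day or handling. Deviations of same-numbered libraries from their group means correlated across genes with coefficients of 0.156, -0.159, 0.248 and 0.029 for replicates 1 to 4. The S+ library with the highest such correlation was S+2 for S-1, S+4 for S-2, S+3 for S-3 and S+2 for S-4. The best partner thus had the same number for S-3 only.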
